A study of Zea mays with 4 samples.

Results

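The cellulose synthase genes (CesA) of maize were followed in whole-kernel RNA of the bt2 mutant and the wild type. They were chosen by name, as genes whose platform symbol, RefSeq symbol or RefSeq synonym begins with cesa and a number. Of 1108 named genes on the array, 12 matched, and the 10 with the highest mean over the 4 arrays were kept. These are CesA-1 to CesA-9 and CesA12, read by 11 of the 17620 maize probe sets. The mean was used for that choice only: CesA12, the last gene kept, had a mean of 3.64 on the log2 scale, and the genes left out, CesA10 and CesA11, had 2.37 and 1.95.

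The samples were 2 of the bt2 mutant, which carried the bt2-H2328 allele, and 2 of the wild type, each on 1 Affymetrix array. All kernels were harvested 35 days after pollination from untreated greenhouse plants, and the labels name neither the inbred line nor the number of kernels or ears behind a sample. The RNA amount was 20 µg for every sample except mutant 2, with 17 µg. Bt2 codes for the endosperm's small subunit of ADP-glucose pyrophosphorylase, which supplies the glucose donor for starch, and the study asked whether a block in starch synthesis turns on other routes of sucrose use. Cellulose is such a route, since it is built from sucrose-derived UDP-glucose.

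Cellulose is spun at the plasma membrane by rosette complexes whose catalytic subunits are CesA proteins. A complex holds 3 kinds of CesA subunit, and plants have separate sets for the primary wall of growing cells and for the thick secondary wall of xylem, fibres and similar cells. In Arabidopsis the primary set is the CESA1, CESA3 and CESA6 types, and the secondary set is CESA4, CESA7 and CESA8. By sequence, maize CesA-1, CesA-2 and CesA-3 are related to Arabidopsis CESA1, CesA-4, CesA-5 and CesA-9 to CESA3, and CesA-6, CesA-7 and CesA-8 to CESA6. CesA10, CesA11 and CesA12 are the maize secondary wall genes.

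Values are log2 GCRMA expression values as deposited, and a difference is the mutant mean minus the wild-type mean on that scale, so that a difference of -1 is a halving. A probe set was tested if it reached a value of 4 on 2 or more arrays, which left 10458 probe sets and, with 1 probe set per gene, 781 named genes. Each array had 57.5% to 58.6% of its maize probe sets at that level. Tests are limma's moderated test with Benjamini-Hochberg adjustment over all 10458 probe sets and a threshold of 0.05. bt2 itself (LOC541902) read 10.13 and 10.12 in mutant 1 and mutant 2, against 12.67 and 12.64 in wild type 1 and wild type 2. It fell by 2.53 (SE 0.09, n = 2 arrays per group, limma adjusted p = 0.00514).

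Poly-A control RNAs, which are added and are not of maize, read a median of 1.20 above the wild-type arrays in the mutants over 36 probe sets. Centring the arrays on them lowered every difference by 1.23, so each difference below is relative to the array-wide scale. For 4 maize control transcripts with probe sets near the 5′ end and near the 3′ end, the log2 ratio of 5′ over 3′ signal was lower in the mutants in 4 of 4, with differences from -1.545 to -0.49 and a median of -0.972. The part of either in the differences of the CesA genes was not tested. In a whole kernel, fewer cells of a type and less RNA per cell cannot be told apart.

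The primary wall genes were lower in the mutant or near the wild type, and none passed the test as higher. All 9 primary wall genes were measured, and 5 of them fell, namely CesA-9, CesA-2, CesA-1, CesA-7 and CesA-3. Over the named genes the share that fell was 29.4% and the share that rose 20.9%, against 5 and 0 of 9 here. CesA-4, CesA-5, CesA-6 and CesA-8 did not pass. The median difference of the 9 genes was -0.735, against -0.18 over all 781 named genes and -0.015 over all probe sets. The differences ran from -2.15 for CesA-9 to 0.335 for CesA-5. The mutant and wild-type arrays did not overlap in any of the 9 genes, with 8 lower and 1 higher in the mutant. Of named genes, 47.5% were lower without overlap and 32.1% higher. The 8 include CesA-6 and CesA-4, with gaps between the groups of 0.01 and 0.04, and the 1 higher is CesA-5, with 0.06. Each of these gaps was smaller than the differences between arrays of 1 group. With 2 arrays per group a permutation of the arrays cannot give an exact p below 0.333. The differences of these 5 genes kept their sign with any 1 array left out. Groups without overlap must do so in any gene, so the sign adds nothing to the calls. The calls did not all hold, and fewer arrays then set the spread. Leaving out mutant 1, mutant 2 or wild type 2 left no probe set of the whole array past the limma threshold, and leaving out wild type 1 left 4 of the 5 genes, all but CesA-3. At an unadjusted p of 0.05, 4, 4, 6 and 5 of the 9 genes were lower without mutant 1, mutant 2, wild type 1 and wild type 2, in that order, where 28.0%, 30.1%, 30.2% and 23.6% of named genes were.

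**Figure D1:**
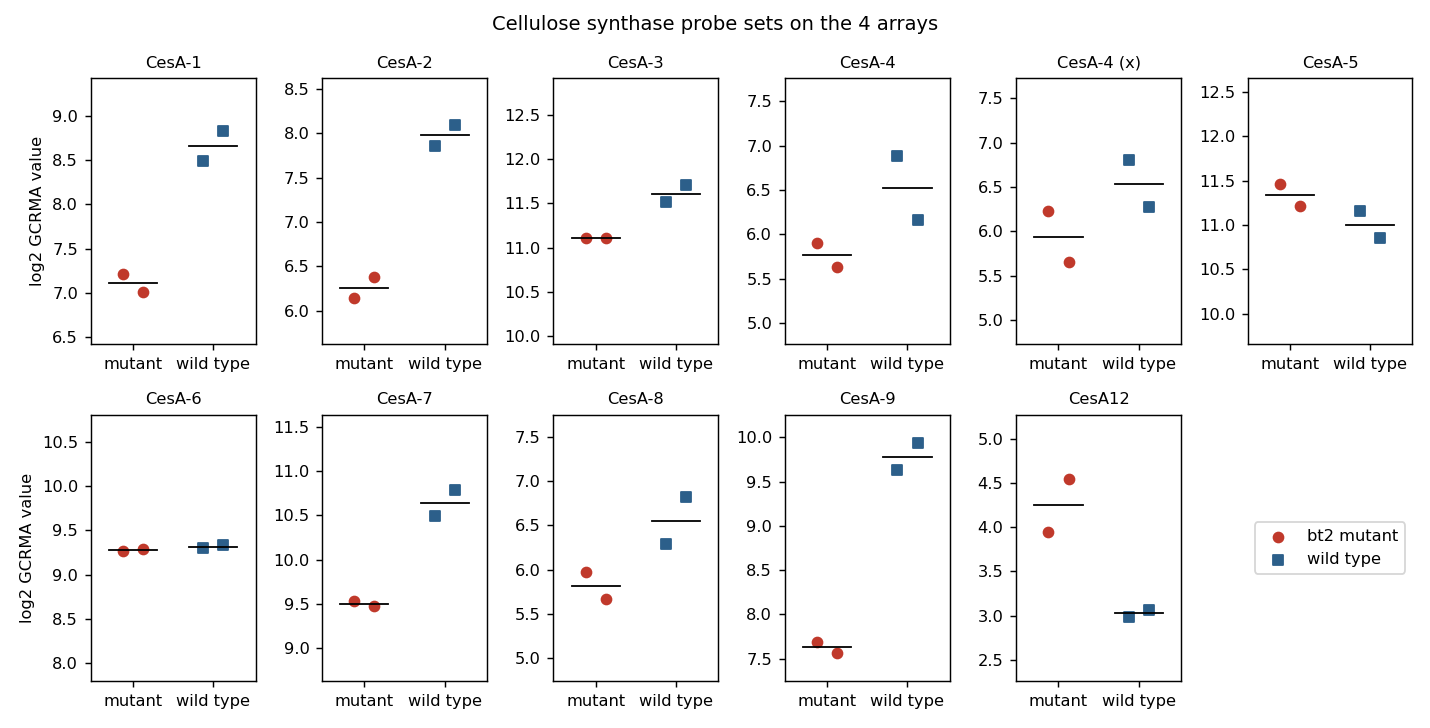
Log2 GCRMA value (y axis, the same span of 3 units in every panel) of the 11 cellulose synthase probe sets in bt2 mutant arrays (circles) and wild-type arrays (squares), replicate 1 left of replicate 2, with a line at each group's mean. CesA-4 (x) is the second probe set of CesA-4. The groups lie farthest apart in CesA-9, at 7.69 and 7.57 in the mutants against 9.63 and 9.93 in the wild types, and nearly coincide in CesA-6.

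The CESA1-type genes all passed as lower. CesA-2 (LOC542564) read 6.14 in mutant 1 and 6.38 in mutant 2, against 7.86 in wild type 1 and 8.10 in wild type 2. The mutants lay 1.48 below the nearest wild type, while arrays of 1 group differed by 0.24. CesA-2 fell by 1.72 (SE 0.177, n = 2), which is 3.29-fold, and its limma adjusted p was 0.00785. CesA-1 (LOC541802) read 7.21 and 7.01 in the mutants, against 8.49 and 8.83 in the wild types. It fell by 1.55 (SE 0.182, n = 2), which is 2.93-fold, and its limma adjusted p was 0.00871. CesA-1 and CesA-2 are close paralogues, and their centred values over the 4 arrays were the nearest of any 2 of the 9 genes, at a Euclidean distance of 0.362. The difference of CesA-2 minus that of CesA-1 was -0.17, with an exact permutation p of 1.0. The probe sequences are not used here, so how far each probe set also reads the other gene is not known.

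CesA-3 (LOC542489), also of the CESA1 type, moved less. It read 11.11 on both mutant arrays, against 11.51 and 11.71 in the wild types. It fell by 0.50 (SE 0.112, n = 2), which is 1.41-fold, and its limma adjusted p was 0.0275. That call is the weakest of the 5, with a limma adjusted p of 0.0538 when the replicate number is a block. With 1 array left out its difference ran from -0.6 to -0.4. The CesA-2 difference was -1.6 without mutant 1 or wild type 2, and -1.84 without mutant 2 or wild type 1. For CesA-1 the difference ran from -1.72 to -1.38 in those fits.

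The CESA3-type genes differed among themselves. CesA-9 (LOC541807) had the largest difference of the family. It read 7.69 and 7.57 in the mutants, against 9.63 and 9.93 in the wild types, a gap of 1.94 between the groups where arrays of 1 group differed by 0.12 and 0.30. CesA-9 fell by 2.15 (SE 0.157, n = 2), which is 4.44-fold, and its limma adjusted p was 0.00683. Of all tested probe sets, 3.20% had a lower difference. Its difference was -2.21 with mutant 1 left out, -2.09 with mutant 2, -2 with wild type 2 and -2.3 with wild type 1 left out.

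CesA-5 (LOC541803) was the 1 member with a positive difference among those tested. It read 11.46 and 11.22 in the mutants, against 11.16 and 10.85 in the wild types. The lowest mutant lay 0.06 above the highest wild type, and the difference of 0.335 (SE 0.160, 95% interval -0.09 to 0.76) did not pass, with a limma adjusted p of 0.158. On the poly-A scaling it was -0.895. CesA-4 (LOC542624) had 2 probe sets. The one with the higher mean, whose name marks probes that may read related sequences, read 6.23 and 5.65 in the mutants, against 6.80 and 6.27 in the wild types. The other read 5.90 and 5.63 in the mutants, against 6.89 and 6.16 in the wild types. Their differences of -0.595 (SE 0.303) and -0.76 (SE 0.302) did not pass, with limma adjusted p values of 0.179 and 0.107. Wild type 1 exceeded wild type 2 in both probe sets, by 0.53 and 0.73, whereas wild type 2 was the higher in 7 of the 9 genes. CesA-4 and CesA-9 are close paralogues, and the difference of CesA-9 minus that of CesA-4 was -1.555. The exact permutation p of that contrast was 0.333, the smallest 2 against 2 arrays can give.

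Of the CESA6-type genes, CesA-7 fell and CesA-6 was nearly level. CesA-7 (LOC541805) read 9.53 and 9.47 in the mutants, against 10.49 and 10.79 in the wild types. It fell by 1.14 (SE 0.143, n = 2), which is 2.20-fold, and its limma adjusted p was 0.00938. Its difference was -1.17 with mutant 1 left out, -1.11 with mutant 2, -0.99 with wild type 2 and -1.29 with wild type 1 left out. CesA-8 (LOC541806), a close paralogue of CesA-7, read 5.97 and 5.67 in the mutants, against 6.29 and 6.82 in the wild types. Its difference of -0.735 (SE 0.254, 95% interval -1.41 to -0.06) had an unadjusted p of 0.0393 and did not pass after adjustment, at 0.0771 by limma. The difference of CesA-7 minus that of CesA-8 was -0.405, with an exact permutation p of 0.333.

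The 4 values of CesA-6 (LOC541804) lay closest together among the 9 tested genes. It read 9.27 and 9.29 in the mutants, against 9.30 and 9.33 in the wild types. The difference was -0.035 (SE 0.107, 95% interval -0.32 to 0.25), with a limma adjusted p of 0.811. The interval bounds a change of CesA-6 on the array-wide scale only, and on the poly-A scaling its difference was -1.265. The difference of CesA-7 minus that of CesA-6 was -1.105 and the difference of CesA-9 minus that of CesA-5 was -2.485, each with an exact permutation p of 0.333.

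**Figure D2:**
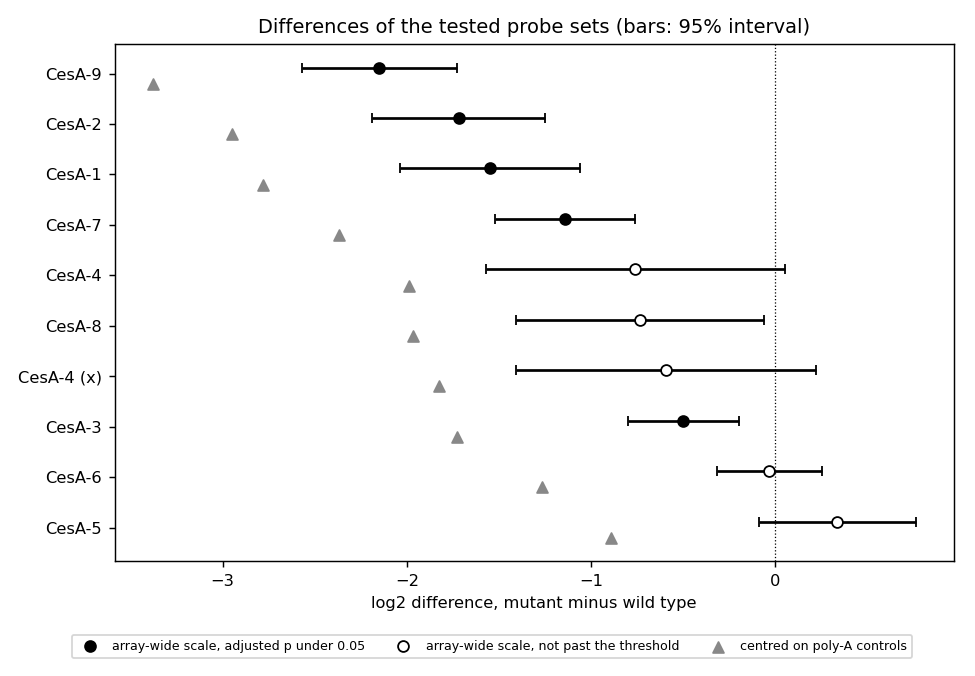
Log2 difference, mutant minus wild type (x axis), of the 10 tested probe sets of CesA-1 to CesA-9 with limma's 95% intervals, filled where the adjusted p was under 0.05, and the same difference after centring on the poly-A controls (triangles). On the array-wide scale the differences run from -2.15 for CesA-9 to 0.335 for CesA-5, and after that centring from -3.38 to -0.895, all below 0.

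After centring on the poly-A controls, all 9 genes passed as lower, with differences of -3.38 for CesA-9 to -0.895 for CesA-5. Of named genes, 79.8% passed as lower and 4.22% as higher. These calls are overstated, since 1 offset per array was subtracted from all probe sets and its error is not allowed for. For CesA-9 the SE rose from 0.157 to 0.261, yet limma's unadjusted p fell from 8.8e-05 to 1.5e-12. The order of the genes by difference is the same on both scalings, since centring moves all probe sets alike. On the array-wide scale, where 29.4% of named genes were lower, CESA1-type genes gave 3 of 3, with a median difference of -1.55, CESA3-type genes 1 of 3 with a median of -0.595, and CESA6-type genes 1 of 3 with a median of -0.735. A count of 1 of 3 is near that share. Those counts include CesA-9 and CesA-7, whose calls, like every other on the array, were lost when mutant 1, mutant 2 or wild type 2 was left out.

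**Figure D3:**
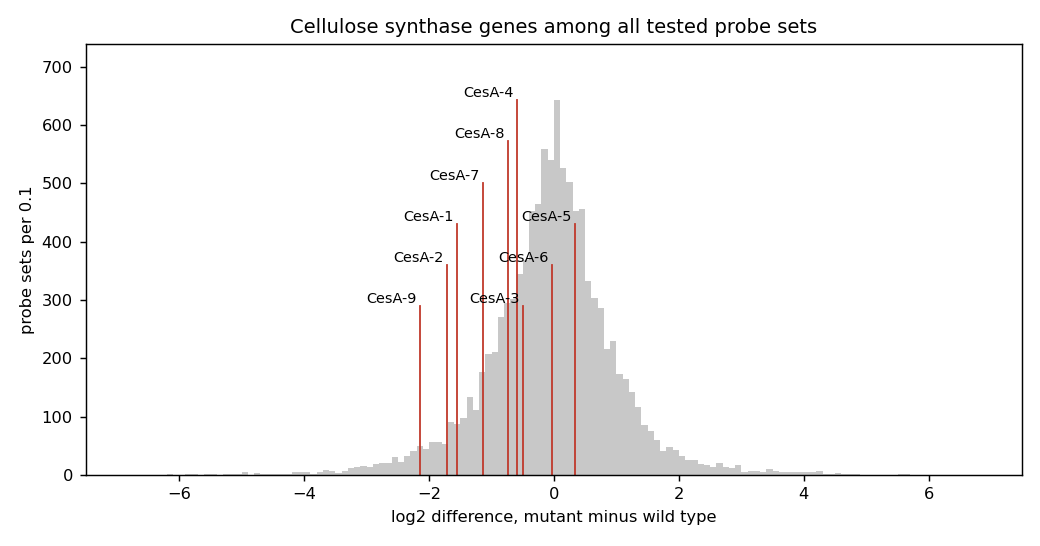
Number of tested probe sets (y axis) by log2 difference, mutant minus wild type (x axis, steps of 0.1), with red lines at the 9 cellulose synthase genes (1 probe set each, line heights arbitrary). CesA-9, CesA-2, CesA-1 and CesA-7 lie in the lower flank of the distribution, where 3.20%, 5.36%, 6.67% and 11.5% of probe sets had a lower difference, while CesA-5 and CesA-6 lie near its middle.

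The secondary wall genes were at or near the bottom of the scale. CesA12 (LOC542514) read 3.95 and 4.54 in the mutants, against 2.99 and 3.07 in the wild types. With 1 array at 4 or more it did not enter the test. Both mutants lay above both wild types, by at least 0.88, while the mutants differed from each other by 0.59. Its wild-type values were under 4, and against that level the mutant mean of 4.245 (SD 0.417, n = 2) was at least 1.19-fold higher. Fitted without the filter on low values, the difference was 1.215 (SE 0.245), with a limma adjusted p of 0.0495. In that fit 3484 of 17620 probe sets passed as higher and 1778 as lower, against 2199 and 2315 of 10458 with the filter. CesA10 (LOC542685) and CesA11 (LOC542139), which the choice by mean left out, read 1.94 to 2.40 on all 4 arrays, with differences of 0.035 and 0.015. A comparison of the primary with the secondary wall set therefore rests on 9 tested genes against none. For the secondary set these arrays give low values in both groups, and no difference of CesA10 or CesA11 was detectable at that signal.

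The lists of other genes below are read against the same share over the named genes, 29.4% lower and 20.9% higher, with a median of -0.18. The array annotation had 6 genes for sucrose synthases, which make UDP-glucose from sucrose, and for brittle stalk 2, a COBRA-like protein needed for cellulose in maize stalk walls, and its relatives. Of the 6, 2 fell, 4 did not pass and none rose, with a median of -0.465, and that count is near the share of named genes that fell. The sucrose synthase sus1 read 9.24 and 9.10 in the mutants, against 11.35 and 11.78 in the wild types, and fell by 2.395 (SE 0.180, limma adjusted p = 0.00683). Bk2L3 read 10.57 and 10.50 in the mutants, against 11.34 and 11.58 in the wild types. It fell by 0.925 (SE 0.125, limma adjusted p = 0.0102), and in a second probe set it fell by 0.865. Bk2L6 differed by -0.61, bk2 by -0.08, sus2 by 0.04 and the endosperm sucrose synthase sh1 by -0.32, none past the threshold. Bk2L6 read 3.88 and 3.75 in the mutants, against 4.29 and 4.56 in the wild types. It entered the test through the wild types alone, and its difference is part of the median of the list. A second probe set of sh1, not counted because its mean was lower, fell by 2.765 and passed (SE 0.649, limma adjusted p = 0.0308). Its mutants were at 10.40 and 8.53, against wild types at 12.04 and 12.42. The count of 2 therefore rests on the probe set used for sh1. No gene named as cellulose synthase-like was in the annotation. None of these calls held when mutant 1, mutant 2 or wild type 2 was left out.

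Of 6 genes matched for lignin and the secondary wall, HCTR, LAC1 and ccr2 were under 4 on every array and were not tested. Of the 3 tested, all of lignin synthesis, 2 rose and 1 did not pass, where 20.9% of named genes rose. PAL1, phenylalanine ammonia-lyase at the entry to the pathway, read 10.58 and 11.53 in the mutants, against 9.29 and 8.32 in the wild types, and rose by 2.25 (SE 0.468, limma adjusted p = 0.0232), or 1.02 on the poly-A scaling. BM1, cinnamyl alcohol dehydrogenase, rose by 0.93 on the array-wide scale and read -0.30 on the poly-A scaling. 4CL differed by 1.225 and did not pass, and by -0.005 on the poly-A scaling. This list had no call without the filter on low values, with the replicate block or with any 1 array left out. Of 2 genes for matrix polysaccharides and their sugar donors, RGP, a reversibly glycosylated polypeptide, fell by 0.905 (limma adjusted p = 0.0197) and the xyloglucan endotransglycosylase xet1, at -0.065, did not pass. The call of RGP was lost without mutant 1, mutant 2 or wild type 2.

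Dividing and growing cells lay down primary walls, and 8 genes of cell division were looked up beside the CesA genes. Of the 8, 3 were tested, and those 3 fell, with a median of -1.255, where 29.4% of named genes fell with a median of -0.18. The D-type cyclin cycD2 read 8.99 and 8.73 in the mutants, against 10.08 and 10.15 in the wild types. The cyclin-dependent kinase cdc2 fell by 1.195 and the replication factor pcna2 fell by 2.655 (SE 0.565), with mutants at 4.25 and 3.15. The remaining 5 genes were under 4 on every array. None of the 3 calls held with any 1 array left out.

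**Figure D4:**
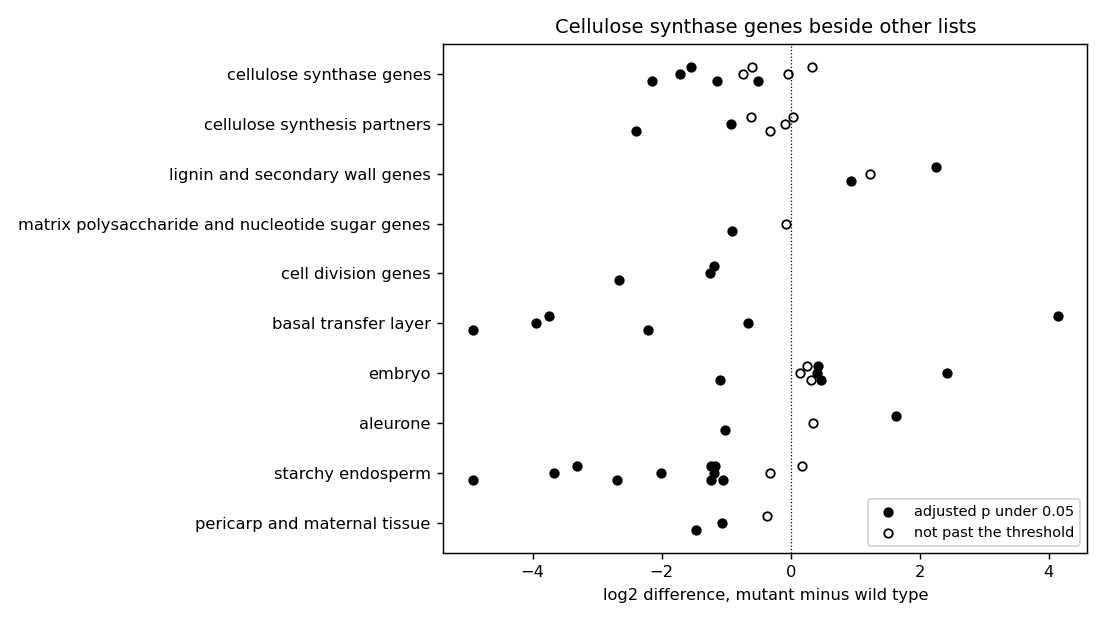
Log2 difference, mutant minus wild type (x axis), of each tested gene in the cellulose synthase family and in the wall and cell type lists (rows), 1 point per gene, filled where the limma adjusted p was under 0.05. Cellulose synthase genes lie between -2.15 and 0.335, cell division genes between -2.655 and -1.195, and lignin genes between 0.93 and 2.25.

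Markers of kernel tissues were set against the 29.4% of named genes that fell and the 20.9% that rose, and their part in the differences of the CesA genes was not tested. Of 12 tested starchy endosperm genes, 10 fell and 2 did not pass, and the log2 of their summed level was 16.03 and 15.81 in the mutants, against 17.37 and 17.34 in the wild types. The falls include the zein genes z1C1_4, z1C1_12, z1C1_20, z1C2 and z1D_2, which are related and not separate markers. Of these, z1C1_4 and z1C1_20 were counted by probe sets whose names mark probes that may read related sequences. The genes that did not pass were wx1, at 0.18, and zp27, at -0.325. Of 6 tested basal transfer layer genes, 5 fell and 1 rose. Of the 5, meg2, betl3 and BETL1 were under 4 on both mutant arrays and entered the test through the wild types alone, so the filter itself favoured their falls. The gene that rose is a transporter gene that shares the synonym MRP1 with a transfer cell regulator, and with it the summed level was 10.29 and 10.30 in the mutants, against 10.29 and 10.82 in the wild types. Of 8 embryo genes, 4 rose, 1 fell and 3 did not pass, at 16.86 and 16.79 in the mutants, against 16.62 and 16.50 in the wild types. The rises include a haemoglobin gene caught through its synonym GLB1. It was under 4 in both wild types and entered the test through the mutants alone. EMB5, rab17 and vp1 rose by 0.43, 0.41 and 0.465, and were -0.80, -0.82 and -0.765 on the poly-A scaling. A second tested probe set of vp1, not counted because its mean was lower, differed by 0.065 and did not pass. The gene that fell, glb3, differed by -1.095 (SE 0.164, limma adjusted p = 0.0122). Without the filter on low values or without the variance trend, 1 embryo gene passed as higher. The replicate block left 2, and quantile normalization gave 6. Of 3 pericarp and maternal genes, bde1 and zag2 fell and 1 did not pass, at 8.74 and 9.19 in the mutants, against 10.01 and 10.02 in the wild types. Of 3 aleurone genes, dek1 rose, Nkd1 fell and 1 did not pass, counts near those shares. The rise of dek1, by 1.635, did not pass without the filter on low values or on the poly-A scaling, where it was 0.405. The summed level of the 3 was 10.85 and 10.83 in the mutants, against 10.91 and 10.86 in the wild types. The markers mn1, betl2, lec1, p1 and ZAG5 were under 4 on all arrays. No list had a call without mutant 1, mutant 2 or wild type 2, and without wild type 1 the counts were 4 of 6 for the basal transfer layer (1 higher and 3 lower), 3 of 12 for starchy endosperm, 1 of 3 for aleurone and 0 for embryo and for pericarp.

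The genes with values most like those of CesA-9 were found by Euclidean distance between values centred on each gene's mean over the 4 arrays, among 772 other named genes. The nearest was ROA (LOC542738), at a distance of 0.117, with 6.06 and 6.01 in the mutants against 8.11 and 8.26 in the wild types. The glutathione S-transferase gene gst10 followed at 0.127, the pyruvate phosphate dikinase gene Ppdk1 at 0.15, akh2, an aspartate kinase and homoserine dehydrogenase gene, at 0.179 and the expansin gene expB8 at 0.25. Their differences ran from -2.30 to -2.125. With 4 arrays in 2 groups, such a likeness says little more than that the differences are of like size. Within the family, the nearest pairs after CesA-1 and CesA-2 were CesA-3 with CesA-8, at 0.393, and CesA-1 with CesA-7, at 0.423, which are of different types.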

How the data were processed

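RNA of 4 maize kernel samples was measured on 1-colour Affymetrix arrays. The table the authors deposited gives 1 log2 value per probe set and array. Per the submitters' processing notes it comes from GCRMA, in which a sequence-based background correction is followed by between-array normalization and probe summary. The log base was read from the values, 1.31 to 15.44. The GCRMA version is not given in the sources. The table held 17734 probe sets, with 113 controls and 1 without values. Names came from the platform annotation (1452 probe sets with 1 gene, 1 with several, 16167 with none), updated by Entrez identifier with RefSeq for Zm-B73-REFERENCE-NAM-5.0, which matched 1060 of 1108 genes and all 10 CesA genes. The files name no genome build, so positions are not printed, and no sequences were used here.

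Probe sets with a value of 4 or more on at least 2 arrays went into limma 3.58.1 under R 4.3.3, mutant against wild type (two-sided, lmFit and trended eBayes, Benjamini-Hochberg over 10458 probe sets). SE is the moderated standard error. A gene with several probe sets was counted by the one with the highest mean. Contrasts between genes used exact two-sided permutation of the arrays, in 5 pairs of genes chosen after their values were seen. The fit was tested on simulated data. Wall classes followed the gene numbers, here from RefSeq synonyms because the RefSeq symbols are locus numbers. The Arabidopsis types were assigned from general knowledge after the values were seen. The members, lists and tests were chosen with earlier results of these data known. All members are named, with up to 4 genes per list by smallest p, a few further list genes, and the 5 genes nearest to the member with the largest difference. Control transcripts with 5′ and 3′ probe sets were used where both had 4 or more on every array, 1 pair per control. Alternatives changed the filter, normalization, variance model, array weights, a pseudocount of 16, a replicate block, the probe set per gene and each array left out. Same-numbered arrays showed no shared deviation (r = 0.02129 across probe sets), and the labels tie no numbers to a shared source. Precision is limited by the 4 arrays. The labels do not say that samples came from separate plants, so p-values reflect only sample-to-sample spread that may be technical. Python 3.11.15 with matplotlib 3.10.9 drew the figures.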

Additional observations from a re-analysis of the deposited data

Results flagged for a closer look

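CesA12 did not enter the main test, because its values passed the filter on low values on 1 array. Its mutant values lay above both wild types by a mean of 1.215 in log2. It is the 1 secondary wall gene among the members. Its mutant values were 3.95 and 4.54, against 2.99 and 3.07 in the wild types. Without the filter its limma adjusted p was 0.0495, close to the threshold, and the mutants differed by 0.59. That fit called 3484 probe sets higher and 1778 lower.

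The poly-A control probe sets were used to set the poly-A scaling and were not tested. They read higher in the mutants in 36 of 36 probe sets, by a median of 1.20. Their median was 7.455 and 7.175 on the mutant arrays, against 6.15 and 6.02 on the wild-type arrays. The hybridisation controls differed by 0.135.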

How the results depend on the processing

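The count of cellulose synthase genes past the threshold was 5 of 9, all lower, and stayed at 4 to 6 without the filter, with a filter at 5, with quantile normalization, without the variance trend, with array weights, with a pseudocount of 16, with every probe set counted and with the replicate block. The block gave 4, since CesA-3 did not pass, and 3444 probe sets in place of 4514, and without the filter the 1 added call was CesA12, higher. Centring on the poly-A controls gave 9, with 8536 probe sets past the threshold (304 higher and 8232 lower, against 2199 higher and 2315 lower). It turned CesA-5 to -0.895, because it moves every difference by the same amount. The p-values of that fit do not allow for the error of the shift. Leaving out 1 array gave 0 to 4 cellulose synthase genes and 0 to 1195 probe sets, while 3633 to 4617 probe sets had an unadjusted p under 0.05 in those fits. The lone array was then assumed to vary like the other group, and fewer arrays set the spread. The median difference of the 9 genes was -0.735, and -0.603 with quantile normalization, -0.604 with the pseudocount, -1.965 with poly-A centring and -1 to -0.585 with 1 array left out. Values under 4 limit what can be said of the secondary wall genes.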
